A study of Rattus norvegicus with 63 samples.

Results

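The miR-200 family comprises rno-miR-200a, rno-miR-200b, rno-miR-200c, rno-miR-141 and rno-miR-429, the 5 of 350 rat miRNAs on the array that carry these names without a star. All 5 were detected on at least 1 array and were among the 162 miRNAs tested, so none was lost to the filter on undetected miRNAs. Their expression was followed in the livers of male Wistar Hanover rats, 8 to 10 weeks old at the start, on 63 single-colour Agilent miRNA arrays with 1 array per rat. The rats formed 15 compound groups and 6 vehicle control sets of 3 rats each.

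A miRNA is a short RNA that binds messenger RNAs mainly through its seed, bases 2 to 8 from its 5′ end, and lowers their translation or stability. The miR-200 family is known for keeping epithelial cells epithelial: its members repress the transcription factors ZEB1 and ZEB2, which silence E-cadherin, the adhesion protein of epithelial junctions. The family is abundant in many epithelia, and in the liver it is associated with the cells lining the bile ducts more than with hepatocytes. In whole liver, as measured here, more cells of a type and more RNA per cell cannot be told apart.

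The 5 precursors lie in 2 clusters on the minus strand of the rat genome (RefSeq, build GRCr8). The hairpins of miR-200b, miR-200a and miR-429 lie within 1908 bases of chromosome 5 (chr5:171929682-171931589). Those of miR-200c and miR-141 lie within 509 bases of chromosome 4 (chr4:159209525-159210033). RefSeq entries were found for all 5 hairpins and for 2 mature 3p arms. Both mature arms are shown because they define the 2 seeds of the family, in capitals:
rno-miR-200c-3p: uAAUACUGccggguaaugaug
rno-miR-141-3p: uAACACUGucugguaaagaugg
Between these seeds, counted from the 5′ end, the only substitution from miR-200c to miR-141 is U4C. Each hairpin of the chromosome 5 cluster holds 1 of these runs of 7 bases, marked in capitals, and they are shown because the cluster carries both seeds:
rno-miR-200b hairpin: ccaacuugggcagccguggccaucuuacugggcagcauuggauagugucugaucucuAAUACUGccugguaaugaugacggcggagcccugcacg
rno-miR-200a hairpin: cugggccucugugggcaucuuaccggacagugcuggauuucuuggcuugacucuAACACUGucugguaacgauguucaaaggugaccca
rno-miR-429 hairpin: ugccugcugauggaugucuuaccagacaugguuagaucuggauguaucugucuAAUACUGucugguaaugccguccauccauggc
The run of miR-200c thus occurs in the hairpins of miR-200b (chr5:171931495-171931589) and miR-429 (chr5:171929682-171929766), and that of miR-141 in the hairpin of miR-200a (chr5:171930717-171930805). The closest pairs in sequence join the clusters. Over the 21 bases that begin 1 base before the run, miR-200b and miR-200c share 20 bases, with the substitution U11G, and miR-200a and miR-141 share 20, with C17A, positions being counted from the first of the 21. Within the chromosome 5 cluster 17 or 18 of 21 bases are shared, and between miR-200c and miR-141 17 are.

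The compounds were given by gavage, in mg per kg and day. The nongenotoxic hepatocarcinogens (NGCs) were phenobarbital sodium (PB, dose not stated in the labels), ethionine (ETH, 200), acetamide (AA, 3000), dehydroepiandrosterone (DHEA, 600) and methylcarbamate (Mcarb, 400) for 14 days, methapyrilene HCl (MPy, 60) for 7 days, and piperonylbutoxide (PBO, 1200) and diethylstilbestrol (DES, 10) for 3 days. The genotoxic carcinogens (GCs) were C.I Direct Black (CIDB, 146) and dimethylnitrosamine (DMN, 4), both for 7 days. The non-hepatocarcinogens (NCs) were cefuroxime (CFX, 250) and nifedipine (Nif, 3), both for 14 days. The compounds of undefined class were cyproterone acetate (CPA, 100) for 14 days, thioacetamid (TAA, 19.2) for 7 days and Wy-14643 (Wy, 60) for 3 days. The labels name a control set for each: methylcellulose (MC) set 1 for AA, DHEA, Mcarb, MPy, TAA and Wy, MC set 2 for CFX and Nif, MC set 5 for DES, ETH and PBO, MC set 6 for PB, corn oil (CO) set 3 for CIDB and DMN, and CO set 4 for CPA. CO set 3 is labelled 7 days and every other control set 14 days, so by the labels PBO, DES, Wy, MPy and TAA differ from their controls in duration. The study's methods call the controls time-matched, and the 2 sources were not reconciled here. Dose groups held 5 rats, and of each treated group the 3 arrayed had been picked for visible liver changes in histopathology, which limits how far they stand for their group.

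The 9 slides were read in 3 scan days of 30, 28 and 5 arrays. Day 1 arrays were the brightest, with a median spot brightness of 193.5 to 243.5 units, followed by day 2 arrays with 140 to 153.5 and day 3 arrays with 75 to 78. Between 81 and 151 miRNAs were detected per array. All PBO rats and MC set 5 were scanned on day 2. Of the PB and CIDB rats, 2 each were scanned on day 1, as were their control sets, and 1 each on day 3. The rats of DES, TAA and Wy share no scan day with their controls. For 15 of 63 samples the deposited value table and the scanner file do not match: the columns of DES and DHEA follow each other's arrays, and those of MC sets 1, 5 and 2 follow the arrays filed under sets 5, 2 and 1. Over the 71 miRNAs detected everywhere, these columns correlated with the array followed with r of at least 0.842 and with the array of their own label with at most 0.675. The scanner files are used here under their own labels. For touched compounds, the members' calls, the fold changes of miR-200b, the called markers and the cluster differences are also given under the table's assignment. Group levels, their order, probe values and summed marker levels are given as filed only. Results for PB, CIDB, DMN and CPA are not touched.

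Levels are log2 values of scanner brightness after quantile normalization, without background correction, as in the methods. They therefore hold the background of the spots, and folds of dim miRNAs come out smaller than on a background-corrected scale. Each member was read by 20 spots of 2 probes. By the marks of the scanner software, miR-200b was well above background on 62 arrays, miR-200a on 54, miR-200c on 18, miR-429 on 10 and miR-141 on 7. Where no array of a group held a member well above background, the fold is given as a bound. The bound sets the brighter group against the lowest signal that passed as well above background on each array of the dim group, or against the member's own signal if that was higher. Bounds compare group means and carry no sampling error. For such members the settings are compared by their calls and adjusted p-values. Brightness does not compare the members with each other, since each probe has its own response. Precision is limited by there being 3 arrays a group, and p-values measure only the spread between the rats chosen. That spread is pooled over all 21 groups, not taken from the 2 groups compared. For miR-200b the pooled SD was 0.117, below the SDs of 0.25 in the PBO rats and 0.29 in the PB rats. The SEs given for these 2 compounds are therefore smaller than their own rats would give.

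In rats given PBO, a pesticide synergist that inhibits cytochrome P450 enzymes, all members of the chromosome 5 cluster rose and neither member of the chromosome 4 cluster did. miR-200b, a repressor of ZEB1 and ZEB2, was at 8.19, 8.46 and 8.69 in the PBO rats and at 7.72, 7.73 and 7.81 in MC set 5. All treated rats lay above all control rats, and also above all 18 control rats of the study, of which the highest was at 8.00. The log2 fold change was 0.69 with an SE of 0.09 (limma, adjusted p = 5.20e-07). miR-200a, its neighbour with the other seed, was at 7.85, 7.96 and 8.07 against 7.62, 7.66 and 7.67. Again no PBO rat overlapped with any control rat, and the difference was 0.31 on the log2 scale (SE 0.05, limma, adjusted p = 9.87e-06). miR-429, the third member of the cluster, was at 7.60, 7.66 and 7.76 against 7.46, 7.47 and 7.52. It was well above background in 2 PBO rats and in no rat of MC set 5, which gives a level at least 1.13-fold higher (adjusted p = 9.87e-06 in limma).

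Both members of the chromosome 4 cluster lay lower in the PBO rats than in any rat of MC set 5, but neither passed the test. miR-200c was at 7.41, 7.44 and 7.50 against 7.51, 7.59 and 7.62. It was well above background in no PBO rat and in 2 controls, so the controls were at least 1.04-fold higher (adjusted p = 0.144 in limma). miR-141 was at 7.44 in all 3 PBO rats and at 7.46, 7.49 and 7.54 in the controls, and since it was well above background in none of these 6 rats no fold is given (adjusted p = 0.223 in limma). Thus 3 of 5 members were called higher in PBO rats, where 4.94% of all tested miRNAs were called higher. The median log2 fold change was 0.19 over the 5 members and -0.01 over the 162 miRNAs tested. Under the table's assignment, the log2 fold changes of miR-200b and miR-200a in PBO were 0.66 and 0.28, both called, and miR-429 was called too (adjusted p = 7.91e-05). miR-200c and miR-141 lay below the controls there too, without a call (adjusted p = 0.172 and 0.207 in limma). The share of all tested miRNAs called in either direction in PBO was then 15.4%, against 8.64% as filed. With slide as a block in that assignment the 3 calls were lost (0.61 for miR-200b and 0.24 for miR-200a, adjusted p from 0.411 to 0.529 over the 3), and the call of miR-429 was also lost when only PBO and MC set 5 entered the fit (adjusted p = 0.0872).

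PB, the classical inducer of liver P450 enzymes and a promoter of liver tumours, gave the same split. miR-200b was at 7.90, 8.35 and 8.45 in the PB rats and at 7.68, 7.78 and 7.80 in MC set 6. The PB rats lay above their controls, although the lowest of them was within the range of all 18 control rats. The log2 fold change was 0.48 with an SE of 0.09 (limma, adjusted p = 0.000887). miR-200a was at 7.71, 7.89 and 8.03 against 7.62, 7.67 and 7.67, higher by 0.23 with an SE of 0.05 (limma, adjusted p = 0.00294). The rat lowest in miR-200b was also lowest in miR-200a and in miR-429. miR-429 was at 7.58, 7.67 and 7.74 against 7.50, 7.50 and 7.54, well above background in 2 PB rats and in no control, which gives a level at least 1.08-fold higher (adjusted p = 0.000887 in limma).

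For the chromosome 4 cluster, the PB rats were uniform and the controls were spread by 1 rat. miR-200c was at 7.49 in all 3 PB rats and at 7.46, 7.47 and 7.67 in MC set 6 (adjusted p = 0.76 in limma). It was well above background in the highest control rat and in none of the other 5 rats, so the controls were at least 1.03-fold higher by their mean. miR-141 was at 7.44, 7.44 and 7.45 in the PB rats against 7.46, 7.47 and 7.58 and was well above background in none of these rats (adjusted p = 0.429 in limma). The 3 called members made up 3 of the 4 miRNAs called higher in PB, 2.47% of those tested. The median log2 fold change was 0.15 over the 5 members and -0.00415 over all tested.

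The call of miR-200a in PB rested on the rat scanned on day 3. Without it, PB replicate 3, the log2 fold change of miR-200a was 0.15 (adjusted p = 0.141 in limma), and the fit within scan day 1 leaves out the same rat (adjusted p = 0.142). Within that day miR-200b was at 0.38 (adjusted p = 0.0245) and miR-429 was called (adjusted p = 0.0115). With all 3 PB rats and scan day as a block, all 3 members were called, miR-200b at 0.44 (adjusted p = 0.00392), miR-200a at 0.19 (adjusted p = 0.0263) and miR-429 (adjusted p = 0.00392). With slide as a fixed block miR-200b reached 0.88 and miR-200a 0.44, and miR-429 was not called (adjusted p = 0.0774), PB sharing no slide with MC set 6. When only PB and MC set 6 entered the fit, no member was called (adjusted p from 0.317 to 0.394). On the scanner software's background-subtracted signal miR-200a in PB was at 1.03 with no call under either scaling (adjusted p = 0.0937 and 0.109), and the other 2 were called.

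CIDB, a benzidine-based azo dye, was the one compound in which both clusters lay above the controls. miR-200b was at 8.09, 8.11 and 8.29 in the CIDB rats and at 7.78, 7.80 and 8.00 in CO set 3, a difference of 0.31 with an SE of 0.09 (limma, adjusted p = 0.0143). miR-200a was at 7.81, 7.85 and 7.87 against 7.65, 7.68 and 7.75, a difference of 0.15 with an SE of 0.05 (limma, adjusted p = 0.0265). miR-429 was at 7.62, 7.67 and 7.70 against 7.52, 7.52 and 7.59, well above background in all 3 CIDB rats and in no control, and so at least 1.05-fold higher (adjusted p = 0.00206 in limma). No CIDB rat overlapped with its controls for any of the 5 members.

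miR-200c was at 7.69, 7.72 and 7.72 in the CIDB rats and at 7.48, 7.59 and 7.62 in CO set 3. It was well above background in every CIDB rat and in no control, at least 1.06-fold higher, but did not pass the test (adjusted p = 0.0623 in limma). miR-141 was at 7.55, 7.56 and 7.57 against 7.49, 7.49 and 7.51 (adjusted p = 0.124). The count was therefore 3 of 5 members called higher, with 13% of all tested miRNAs called higher in CIDB. In the value table, all 5 members were called, among them miR-200c (adjusted p = 0.0461 in limma) and miR-141 (adjusted p = 0.0145). The share of its 135 miRNAs called in CIDB was not counted, and the 13% does not apply there. miR-141 was well above background in 1 CIDB rat and in no control. The calls of miR-200a and miR-200b in CIDB were the less stable: with slide as a fixed block the log2 fold changes were 0.16 (adjusted p = 0.101) and 0.24 (adjusted p = 0.271). Without CIDB replicate 1, CO set 3 replicate 4 or CO set 3 replicate 5, neither was called (log2 fold changes from 0.13 to 0.28), and without CIDB replicate 3 miR-200a was not (adjusted p = 0.0733). With scan day as a block miR-200a was at 0.12 (adjusted p = 0.102), while within scan day 1 both were called at 0.17 and 0.34 (adjusted p = 0.0141 for each). When only CIDB and CO set 3 entered the fit, miR-200b and miR-429 were not called (adjusted p = 0.0763 and 0.0575).

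**Figure D1:**
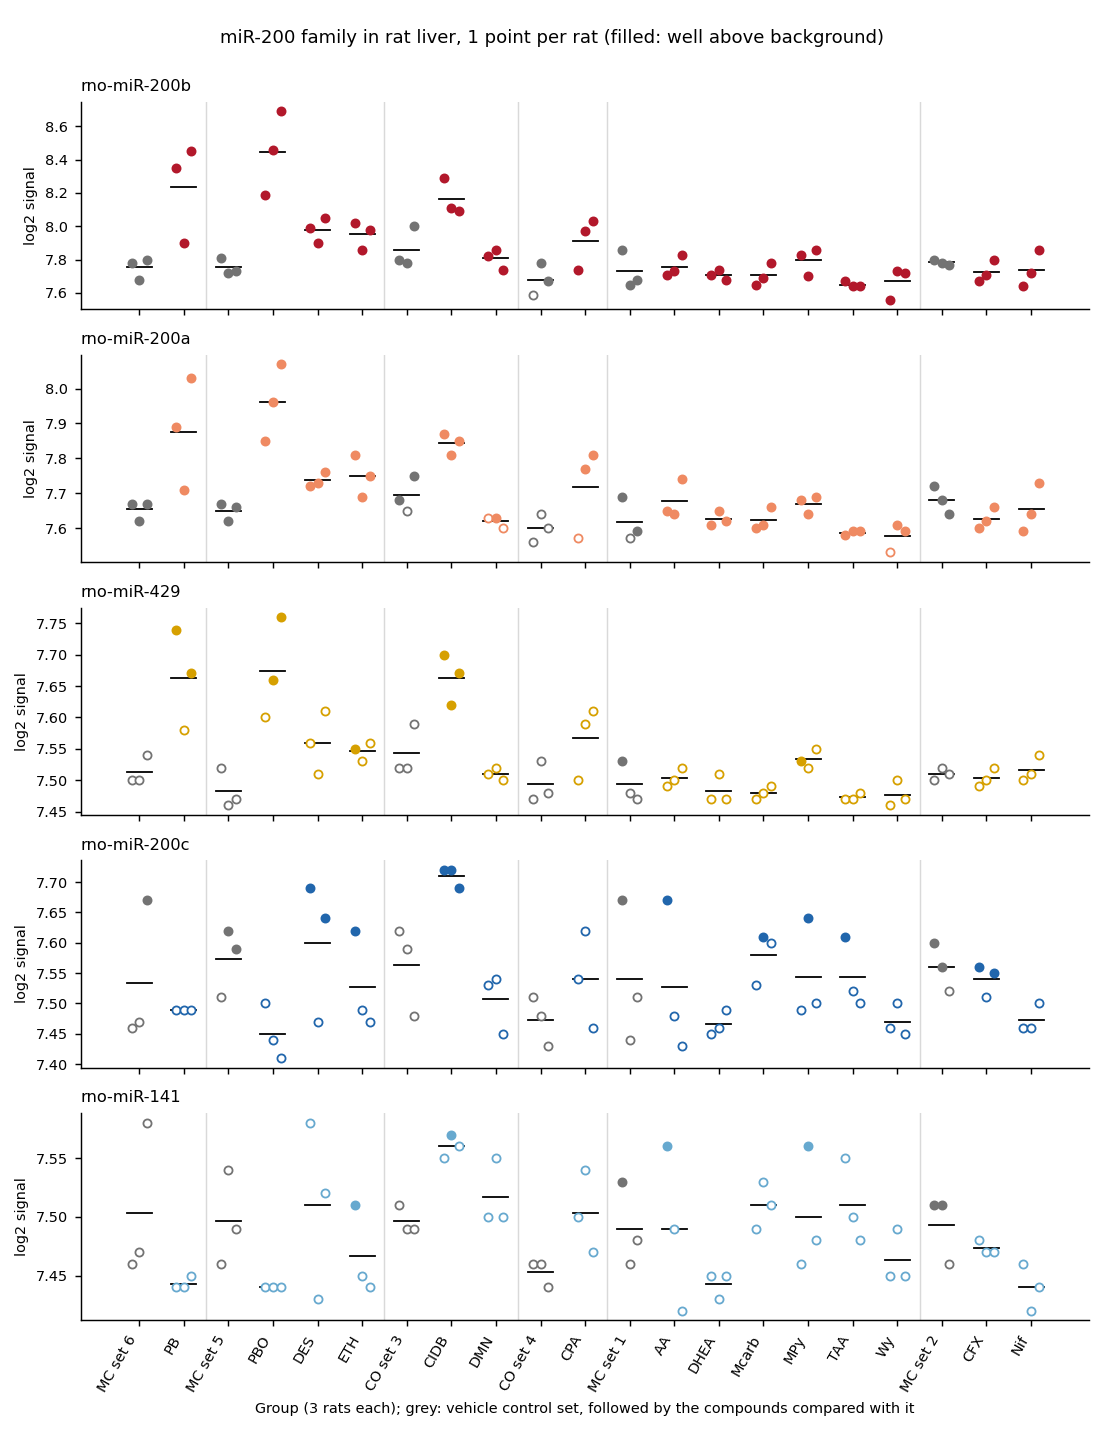
Log2 signal of each member (1 panel per miRNA, with its own scale) in every rat, by group on the horizontal axis; grey points are vehicle control sets, coloured points the compounds compared with them, filled points are well above background and bars are means of 3 rats. miR-200b, miR-200a and miR-429 stand out in PB, PBO and CIDB, whereas for miR-200c and miR-141 only CIDB has all 3 rats near the top.

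In the value table, which holds all 5 members, the same comparisons gave larger folds. miR-200b was 4.20-fold higher in PBO (adjusted p = 3.74e-05 in limma), 3.50-fold in PB (adjusted p = 0.000652) and 2.26-fold in CIDB (adjusted p = 0.0128), against 1.62-, 1.40- and 1.24-fold from the scanner files. miR-200c and miR-141 had lower means than their controls, with no call in PBO (adjusted p = 0.164 and 0.211 in limma) or in PB (adjusted p = 0.719 and 0.318). Neither was well above background in any PBO or PB rat, so no folds are given. A low miR-200c was not particular to these compounds: in Wy it lay below its controls, with no call (adjusted p = 0.151 in limma). As a description of dim signals, the chromosome 4 cluster averaged -0.52 in Wy and -0.56 in PBO, each below the controls. The chromosome 5 cluster averaged -0.32 in Wy, overlapping with its controls. The table's values run from 2.55 to 14.85 with column medians of 4.49 to 5.01, and its scale and centring are not stated beyond log2. With normexp background correction of the scanner brightness, miR-200b reached log2 fold changes of 1.07 in PBO, 0.79 in PB and 0.51 in CIDB, all called. The table's folds for PBO also rest on other control arrays, and the reason for its wider spread was not tested. For these 3 compounds the direction of miR-200b, miR-200a and miR-429 was the same under every alternative tried.

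**Figure D2:**
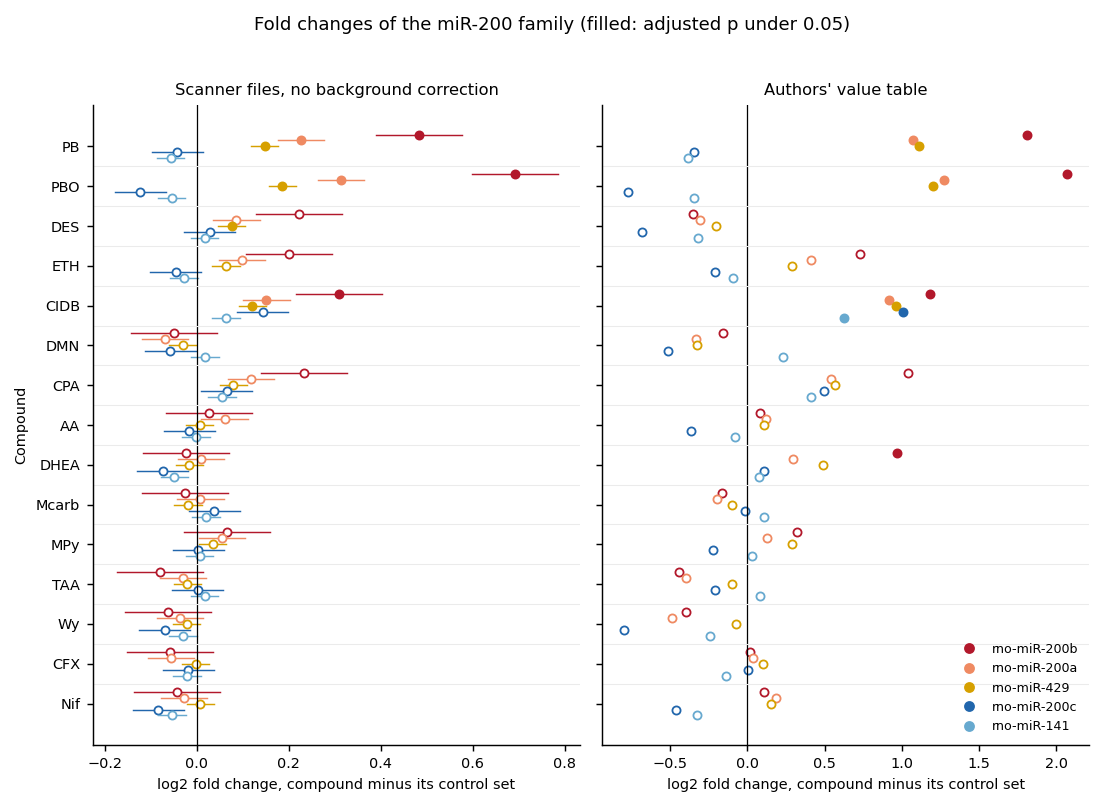
Log2 fold change of each member (colours) for the 15 compounds, from the scanner files on the left, with bars of 1 SE, and from the authors' value table on the right, where arrays of DES, DHEA and MC sets 1, 2 and 5 are assigned otherwise; filled points passed the test. The scales of the panels differ: miR-200b in PBO is at 0.69 on the left and at 2.07 on the right. miR-200c and miR-141 lie left of 0 in both panels in PB and PBO, and also in other compounds such as Wy and Nif.

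DES, a synthetic estrogen, gave the fourth compound with a call. miR-429 was at 7.51, 7.56 and 7.61 in the DES rats and at 7.46, 7.47 and 7.52 in MC set 5 (adjusted p = 0.0419 in limma). It was well above background on none of these arrays, so no fold is given, and the groups overlapped. This was 1 of 5 members, with 21% of all tested miRNAs called higher. miR-200b was at 7.90, 7.99 and 8.05 against 7.72, 7.73 and 7.81, without overlap, and missed the threshold with a difference of 0.22 (SE 0.09, limma, adjusted p = 0.0561). Under the assignment of the value table these arrays are DHEA rats, and the difference moves with them: miR-200b was then at -0.08 in DES and at 0.22 in DHEA (adjusted p = 0.0561). No member was called in DES in that assignment, where 17.9% of all tested miRNAs were called in either direction. In the table itself miR-200b was at -0.35 in DES and at 0.97 in DHEA, where it was called (adjusted p = 0.0307). Which compound these rats received could not be settled from the files. No DES array shares a scan day with its controls, and with scan day as a block miR-429 was not called (adjusted p = 0.457).

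In the remaining 11 compounds no member was called in either direction, and no absolute log2 fold change exceeded 0.23. The share of all tested miRNAs called in either direction was 25.9% in Wy, 23.5% in DMN, 21.6% in TAA, 18.5% in DHEA, 18.5% in MPy, 16% in ETH, 13.6% in AA, 5.56% in CPA, 1.85% in Mcarb, and 0% in CFX and in Nif. Under the table's assignment the shares were 11.1% in Wy, 7.41% in TAA, 37% in DHEA, 12.3% in MPy, 15.4% in ETH, 2.47% in AA, 0.617% in Mcarb, and 0% in CFX and in Nif. By either assignment DMN, with its own control set untouched, had calls for 38 miRNAs and for no member. The SE of every comparison was 0.09 for miR-200b, 0.06 for miR-200c, 0.05 for miR-200a and 0.03 for miR-429 and miR-141.

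Of these 11 compounds, CPA, an antiandrogenic progestin, and ETH, an antagonist of methionine, came closest to a call. miR-200b was at 7.74, 7.97 and 8.03 in the CPA rats and at 7.59, 7.67 and 7.78 in CO set 4, a difference of 0.23 with overlapping groups (SE 0.09, limma, adjusted p = 0.114). miR-200a was at 7.57, 7.77 and 7.81 against 7.56, 7.60 and 7.64, also with overlap. It was well above background in 2 CPA rats and in no rat of CO set 4, which puts the mean of the CPA rats at least 1.07-fold higher (adjusted p = 0.139 in limma). In the ETH rats miR-200b was at 7.86, 7.98 and 8.02, above all rats of MC set 5, with a log2 fold change of 0.20 (adjusted p = 0.152), or 0.17 under the table's assignment. miR-200a at 7.69, 7.75 and 7.81 and miR-429 at 7.53, 7.55 and 7.56 also lay above these controls, while miR-200c and miR-141 overlapped with theirs. At the other end, the lowest group mean of miR-200b was that of TAA, at 7.64, 7.64 and 7.67 (log2 fold change -0.08, or -0.10 under the table's assignment, adjusted p = 0.593 as filed).

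In the other 9 compounds miR-200b and miR-200a stayed close to their controls on this scale. miR-200b was at 7.71, 7.73 and 7.83 in AA, at 7.68, 7.71 and 7.74 in DHEA, at 7.65, 7.69 and 7.78 in Mcarb, at 7.70, 7.83 and 7.86 in MPy and at 7.56, 7.72 and 7.73 in Wy, against 7.65, 7.68 and 7.86 in MC set 1. It was at 7.67, 7.71 and 7.80 in CFX and at 7.64, 7.72 and 7.86 in Nif against 7.77, 7.78 and 7.80 in MC set 2, and at 7.74, 7.82 and 7.86 in DMN against CO set 3. Each of these groups overlapped with its controls, and the log2 fold changes of miR-200b ran from -0.08 in TAA to 0.06 in MPy. Those of miR-200a ran from -0.07 in DMN, whose rats at 7.60, 7.63 and 7.63 all lay below CO set 3, to 0.06 in AA. Both stayed, under the table's assignment, between -0.10 and 0.04 in these compounds except in DHEA (0.22 and 0.09, on the arrays filed as DES). MPy gained calls on the scanner software's background-subtracted signal when it was scaled over the detected miRNAs. There miR-200a was called higher at 0.82 (adjusted p = 0.0393 in limma), as was miR-429 (adjusted p = 0.0133), and neither was called under any other alternative.

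miR-429, miR-200c and miR-141 were well above background on few of these arrays. miR-429 was so in 1 MPy rat and in no rat of the other 8 compounds. miR-200c was so in 2 CFX rats and in 1 rat each of AA, Mcarb, MPy and TAA, and miR-141 in 1 rat each of AA and MPy. In Nif neither miR-200c nor miR-141 was well above background in any rat, and both lay below the rats of MC set 2, where each was well above background in 2 rats, without a call (adjusted p = 0.685 and 0.474 in limma). miR-200c in Wy overlapped with its controls as filed. Under the table's assignment it lay below them, without a call (adjusted p = 0.216 in limma).

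Over all 75 pairs of member and compound, 10 were called higher and 0 lower in limma. At an unadjusted p under 0.05, 18 were higher and 1 was lower, miR-200c in PBO. The treated rats lay all above their controls in 17 pairs and all below in 8. Separations and unadjusted p-values were not counted over all tested miRNAs by compound. These counts are therefore a description and no result about the members, and the shares of calls are given above by compound. Of the 45 pairs of the chromosome 5 cluster 18 had a negative log2 fold change, and of the 30 pairs of the chromosome 4 cluster 17 had. Under the table's assignment the number called higher was also 10, with miR-429 called in DHEA in place of DES. In the value table it was 12.

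The order of the 21 groups by the mean of miR-200b began with PBO at 8.45 ± 0.25 (SD, n = 3), PB at 8.24 ± 0.29, CIDB at 8.17 ± 0.11, DES at 7.98 ± 0.08, ETH at 7.95 ± 0.08 and CPA at 7.91 ± 0.15. The other 15 group means, among them all 6 control sets, lay between 7.65 and 7.86. Of the 20 gaps between neighbours in this order 2 were larger than the pooled SD within groups of 0.117, namely those below PBO (0.21) and below CIDB (0.19). All other neighbours, including PB and CIDB, differed by less than their spread. For miR-200a the order began with the same 6 groups, PBO at 7.96 ± 0.11, PB at 7.88 ± 0.16, CIDB at 7.84 ± 0.03, ETH at 7.75 ± 0.06, DES at 7.74 ± 0.02 and CPA at 7.72 ± 0.12, above the other 15 at 7.58 to 7.69. These rats varied more in PBO and PB than the controls did, with SDs for miR-200b of 0.25 and 0.29 against 0.05 in MC set 5 and 0.07 in MC set 6.

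miR-429 ran from 7.48 in DHEA, Mcarb, TAA and Wy to 7.67 in PBO, with PBO, PB and CIDB at 7.66 or above, and CPA, DES and ETH next at 7.55 to 7.57. miR-200c, in contrast, was lowest in PBO at 7.45 ± 0.04 and highest in CIDB at 7.71 ± 0.02, and the other 19 groups lay between 7.47 and 7.60. miR-141 ran from 7.44 in DHEA, PBO, PB and Nif to 7.56 ± 0.01 in CIDB. In both, 1 of the 20 gaps exceeded the pooled SD within groups, 0.069 for miR-200c and 0.0368 for miR-141. Most of these values were not well above background, so the lower groups have no order.

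The vehicle sets show how the family varied between sets without a compound. The CO sets also differ in labelled duration, 14 days in set 4 and 7 days in set 3, and in slide. MC set 6 was scanned on day 1 and the other MC sets on days 2 and 3. Over 7 comparisons between sets of the same vehicle, 0 of 35 member differences were called in limma and 0 had an unadjusted p under 0.05, with 5.2% of the differences of all tested miRNAs called. The largest difference was that of miR-200b between the CO sets, -0.18 for set 4 minus set 3, and between MC sets no member differed by more than 0.06. The 18 control rats ranged from 7.59 to 8.00 with a median of 7.78 for miR-200b, from 7.56 to 7.75 for miR-200a, from 7.46 to 7.59 for miR-429, from 7.43 to 7.67 for miR-200c and from 7.44 to 7.58 for miR-141. On scan days 1 and 2 the medians of control rats were 7.78 and 7.75 for miR-200b, 7.65 on both for miR-200a and 7.48 and 7.54 for miR-200c. Above all 18 control rats lay 11 of 45 treated rats for miR-200b, 12 for miR-200a, 11 for miR-429, 4 for miR-200c and 1 for miR-141.

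To compare the clusters in each rat, the differences of the members from the mean of the control set were averaged over miR-200a, miR-200b and miR-429 and over miR-200c and miR-141. In the PBO rats the chromosome 5 cluster was 0.25 to 0.54 above the controls and the chromosome 4 cluster 0.07 to 0.11 below them, each without overlap with the rats of MC set 5. The difference between the clusters was 0.49 ± 0.17 (SD, n = 3) and lay between 0.32 and 0.65, against -0.07 to 0.08 in the controls. In the PB rats it was 0.34 ± 0.17, from 0.15 to 0.46, against -0.08 to 0.07. In the CIDB rats the clusters were 0.19 ± 0.06 and 0.10 ± 0.01 above the controls, and their difference, from 0.04 to 0.15, overlapped with that of the controls. In ETH it was 0.16 ± 0.05, from 0.13 to 0.21, above the controls at -0.07 to 0.08. In the other 11 compounds the mean difference lay between -0.05 and 0.11. In the table's assignment it was 0.45 ± 0.17 in PBO, from 0.28 to 0.62, and 0.12 ± 0.05 in ETH, from 0.09 to 0.18, against -0.01 to 0.01 in their controls. For the other touched compounds the mean then lay between -0.05 in TAA and 0.11 in DHEA, with 0.02 in DES. In Nif it was 0.08, from 0.02 to 0.14, against -0.01 to 0.02 in its controls. In the value table the difference was 2.07 ± 0.53 in PBO, 1.69 ± 0.61 in PB and 0.20 ± 0.24 in CIDB. These are descriptions of dim signals, with no test.

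**Figure D3:**
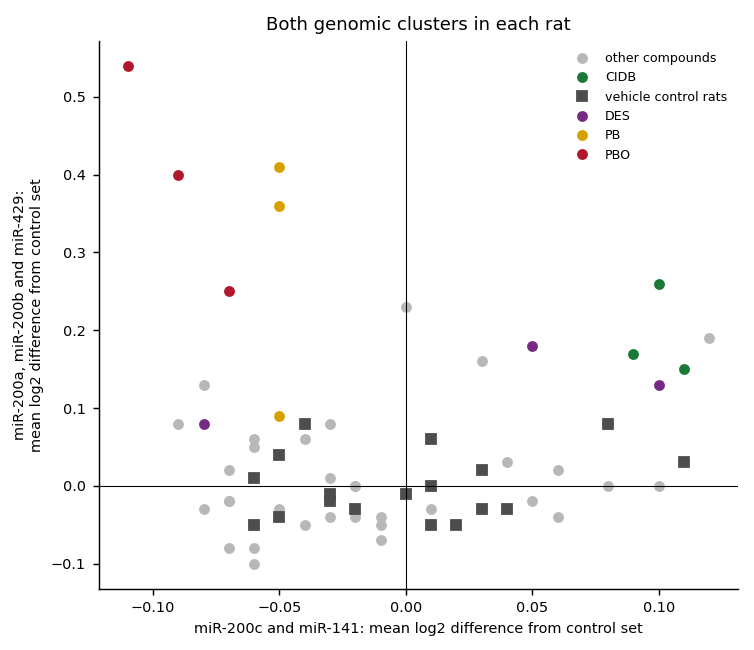
Mean log2 difference from the control set over miR-200a, miR-200b and miR-429 (vertical axis) against that over miR-200c and miR-141 (horizontal axis), 1 point per rat, squares being control rats against the mean of their own set. The PBO and PB rats lie high on the left of 0, at 0.09 to 0.54 on the vertical axis, and the CIDB rats high on the right, at 0.09 to 0.11 on the horizontal axis.

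Grouping by seed split the family less clearly. In PBO the members with the seed of miR-200c (miR-200b, miR-200c and miR-429) averaged 0.25 ± 0.09 and those with the seed of miR-141 (miR-200a and miR-141) 0.13 ± 0.06, so both seeds were above the controls. In PB the averages were 0.20 ± 0.12 and 0.08 ± 0.08, both overlapping with MC set 6, and in CIDB 0.19 ± 0.05 and 0.11 ± 0.01.

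The same partition was seen between rats of the same group. Over the deviations of all 63 rats from the mean of their own group, miR-200a and miR-200b correlated with r = 0.926 (Spearman 0.911), miR-200b and miR-429 with 0.867 (0.874), miR-200a and miR-429 with 0.769 (0.828), and miR-200c and miR-141 with 0.897 (0.852). The 6 pairs from different clusters had r between 0.01 and 0.08. Among them, miR-200b and miR-200c, which share 20 of 21 bases and the seed, had r = 0.02 (Spearman 0.05), and miR-200a and miR-141 had r = 0.01 (Spearman 0.04). Without the 2 rats farthest from the median of the first member, the pairs of the same cluster were at 0.795 to 0.902 and those of different clusters at -0.01 to 0.10. In the 18 control rats alone the pairs of the same cluster were at 0.786 to 0.929 and those of different clusters at 0.120 to 0.304. The points of an array share its RNA, its labelling and its background. Exchanging whole groups of arrays, as the value table does, leaves these deviations as they are.

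Over the 21 group means, pairs of the same cluster correlated with r from 0.879 to 0.986 and pairs of different clusters with -0.08 to 0.18. In the value table the ranges were 0.868 to 0.973 and -0.01 to 0.20. Without PB, PBO and CIDB, left out after their values had been seen, the pairs of different clusters reached 0.225 to 0.459 over 18 group means, and those of the same cluster 0.788 to 0.933. By scan day, pairs of the same cluster were at 0.871 to 0.968 over 30 arrays on day 1 and at 0.904 to 0.984 over 28 arrays on day 2. Pairs of different clusters were at 0.22 to 0.39 on day 1 and at -0.39 to -0.25 on day 2, the day of the PBO arrays.

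**Figure D4:**
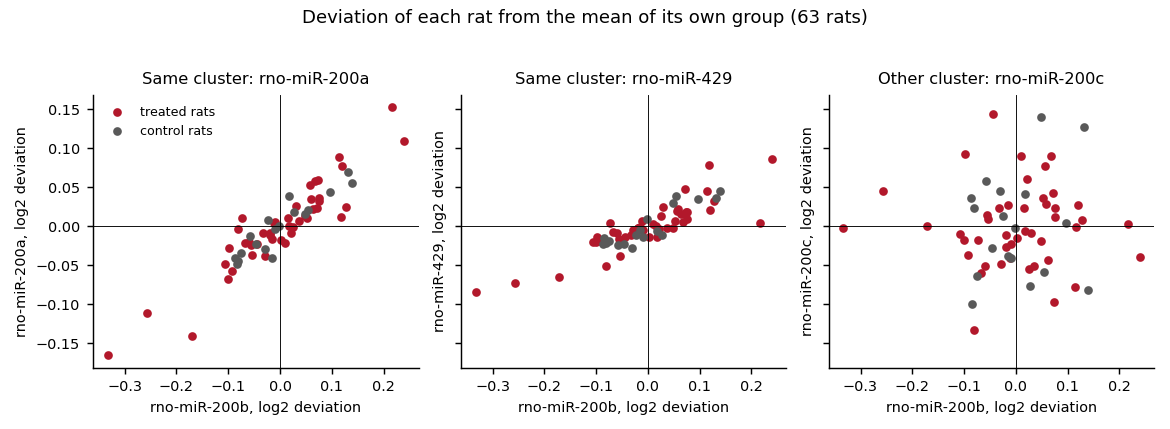
Deviation of each of 63 rats from its group mean, log2 units, for miR-200b on the horizontal axes and miR-200a, miR-429 and miR-200c on the vertical axes, with treated rats in red and control rats in grey. The points of miR-200a (r = 0.926) and miR-429 (r = 0.867) lie along a line, and those of miR-200c (r = 0.02) do not.

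The 2 probes of each member were also compared. For miR-200b they gave log2 fold changes of 0.93 and 0.45 in PBO, 0.66 and 0.31 in PB and 0.41 and 0.21 in CIDB, and over the 63 arrays they correlated with r = 0.951. For miR-200a they gave 0.48 and 0.14 in PBO and 0.35 and 0.10 in PB. For miR-429, not well above background in the controls, both probes were brighter in PBO and in PB. Thus both probes of each member of the chromosome 5 cluster were higher, by unequal amounts. miR-200c was well above background in no PBO or PB rat and miR-141 in none of these rats or their controls, so no differences by probe are given for them. The probes of miR-141 correlated with only r = 0.626.

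Patterns across the groups were also compared with 92 miRNAs outside the family that were well above background on 32 or more arrays. Of these, miR-29c, a repressor of collagens, was the most alike over the 21 group means, with r = 0.566 to miR-200b (Spearman 0.464) and 0.526 to miR-200a (Spearman 0.378). It was followed by miR-28 (0.373) and miR-29a (0.371) for miR-200b and by miR-28 (0.354) and miR-322 (0.332) for miR-200a. Over the 63 deviations within groups miR-29c was at -0.07 with miR-200b. miR-29c was called higher in PBO (log2 fold change 0.34, adjusted p = 0.000445 in limma), CIDB (0.23, adjusted p = 0.0171) and DES (0.24, adjusted p = 0.00689), and in PB it was at 0.15 (adjusted p = 0.429). With the table's assignment, miR-29c was at 0.27 in PBO (adjusted p = 0.0066), at 0.00742 in DES (adjusted p = 0.958) and at 0.24 in DHEA (adjusted p = 0.00689). No other arm of the 5 precursors was on the array.

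The compound classes of the study were compared with the compound as the unit, 8 NGCs, 2 GCs and 2 NCs. In limma 0 members and 0% of the tested miRNAs were called for carcinogens (NGCs and GCs) against NCs, for NGCs against GCs and for NGCs against NCs (0% in each). At an unadjusted p under 0.05 there was 1 member, miR-141 in NGCs against GCs (difference -0.06, adjusted p = 0.338), among 9, 20 and 15 miRNAs in the 3 contrasts. The log2 fold changes of miR-200b spanned -0.03 to 0.69 over the NGCs, -0.05 and 0.31 in the GCs and -0.06 and -0.04 in the NCs. The 3 highest values thus came from PBO and PB among the NGCs and CIDB among the GCs. The lowest NGC, Mcarb at -0.03, lay above both NCs, by less than the SE of 0.09 of a single comparison. Under the table's assignment DES, at -0.08, lay below both NCs, which were then at -0.01 in CFX and 0.01 in Nif. Both NCs shared a control set, as did both GCs. Among the NGCs, AA, DHEA, Mcarb and MPy shared MC set 1, and DES, ETH and PBO shared MC set 5. The compounds of a class are therefore not fully independent units.

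Markers of other cell types were measured on the same arrays and give the setting of these changes. Of 6 other epithelial miRNAs, miR-203, miR-205, miR-182, miR-183, miR-96 and miR-31, 3 were detected on any array and tested. Of these, miR-96 was called higher in PBO (0.19, adjusted p = 0.00499 in limma), PB (0.19, adjusted p = 0.00929) and DES (0.18, adjusted p = 0.00292) and was at 0.04 in CIDB (adjusted p = 0.566). miR-31 was at 0.17 in PBO (adjusted p = 0.0515), and miR-203 was not called in these 4 compounds. The summed level of the list was 1180 to 1220 brightness units in PBO against 1120 to 1140 in MC set 5, 1120 to 1190 against 1110 to 1120 in PB, 1110 to 1140 against 1100 to 1130 in CIDB and 1130 to 1160 against 1120 to 1140 in DES. In PBO 3 of the 6 were undetected in all treated rats and 3 in all controls. The summed levels, here and for the lists below, hold the spot background of every listed miRNA on the array, detected or not. Marker folds are given without the check against background used for the members.

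Of 3 hepatocyte miRNAs, miR-192 was called lower in PBO (-0.24, adjusted p = 0.0172 in limma) and in CIDB (-0.50, adjusted p = 2.28e-07) and higher in DES (0.26, adjusted p = 0.00357). miR-122, the most abundant miRNA of hepatocytes, was called lower in CIDB (-0.33, adjusted p = 3.04e-11) and in none of PBO, PB and DES. In PB 0 of 3 were called. The summed level of the list was 20600 to 24900 in CIDB against 26900 to 28800 in CO set 3, 28000 to 28300 against 28200 to 28800 in PBO, 27800 to 28500 against 28400 to 28700 in PB and 27300 to 28500 against 28200 to 28800 in DES. All 3 were detected in the rats of these 4 compounds and their controls. miR-194, the third of the list, was not called in any of the 4, at -0.14 in CIDB (adjusted p = 0.124).

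Of 5 miRNAs of stellate cells, fibroblasts and smooth muscle 4 were tested, and 0 were called in PBO, PB, CIDB or DES. The summed level of all 5 in PBO was 1130 to 1170 against 1140 to 1210, in PB 1150 to 1210 against 1230 to 1240, in CIDB 1180 to 1250 against 1190 to 1320 and in DES 1130 to 1150 against 1140 to 1210. Of 5 tested leukocyte miRNAs, miR-223 was called lower in CIDB (-0.15, adjusted p = 0.0259 in limma) and miR-142-3p and miR-142-5p were called lower in DES (-0.52, adjusted p = 0.000696, and -0.08, adjusted p = 0.0227), with 0 called in PBO and PB. Their summed level was 1250 to 1380 against 1290 to 1320 in PBO, 1170 to 1340 against 1190 to 1280 in PB, 1140 to 1170 against 1190 to 1290 in CIDB and 1120 to 1210 against 1290 to 1320 in DES. The 2 erythroid miRNAs, miR-144 and miR-451, were not called in any of the 4, with summed levels of 1150 to 2530 in PBO against 901 to 1350, 1110 to 1370 in PB against 834 to 1650, 627 to 984 in CIDB against 907 to 1500 and 629 to 980 in DES against 901 to 1350. Of the 2 endothelial miRNAs, miR-126* was called lower in DES (-0.09, adjusted p = 0.00335), with summed levels of 777 to 816 in PBO against 823 to 883, 887 to 921 in PB against 868 to 993, 889 to 974 in CIDB against 892 to 936 and 878 to 928 in DES against 823 to 883. Under the table's assignment the marker calls given for DES belong to DHEA, and in DES itself miR-192 was called lower (-0.47, adjusted p = 7.55e-07) while miR-96, miR-142-3p, miR-142-5p and miR-126* were not called (adjusted p from 0.231 to 0.379). In PBO, miR-96 was then at 0.145 (adjusted p = 0.0338) and miR-192 at -0.31 (adjusted p = 0.00149), both called. The part of any of these lists, of liver cell composition or of scan day in the differences of the miR-200 family was not tested.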

How the data were processed

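The data were 63 single-colour Agilent rat miRNA arrays of liver RNA, 1 per rat. Per the file headers, the deposited scanner files hold spot intensities read by Feature Extraction 10.7.3.1, not normalized. The authors also deposited a table of log2 values of 135 miRNAs, made per the submitters' processing notes with RMA and per the methods without background correction. Here control spots and the 2.87% of spots with an outlier flag were left out, the mean intensities were quantile normalized, spots were averaged per probe, and median polish on log2 values gave 1 value per miRNA and array. Of 350 miRNAs, 162 detected on at least 1 array were tested. The 71 detected on all arrays served to match table columns to arrays.

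Groups follow the labels. Each compound was compared with its named control set by limma 3.58.1 in R 4.3.3 over all 21 groups, with Benjamini-Hochberg adjustment over 162 miRNAs and a threshold of 0.05. Classes were compared by limma on the log2 fold changes per compound. The rule for named miRNAs took all 5 members across the groups, the 3 most alike miRNAs of each member (members and candidates well above background on 32 or more arrays), and at most 2 called markers per list and compound. The members, lists and rules were chosen with earlier results of these data known. The fits were tested on simulated data with a log2 change of 1 in 40 of 162 miRNAs and the same spread in all groups. All 40 were recovered, with 44 called. That change is larger than any member's in the main fit, so the simulation does not show how the fits do at the sizes seen here. Alternatives are given in the closing section. Sequences come from RefSeq (GRCr8), which was used for names and sequences only. Replicate numbers of PB and MC set 6 and of CPA and CO set 4 coincide, and the rats were not treated as pairs in the main fit. mRNA and protein data of the study were not analysed here.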

Additional observations from a re-analysis of the deposited data

How the results depend on the processing

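The number of members called higher over the 15 compounds was 10 and lay between 8 and 14 under most alternatives, and between 8 and 13 when each rat was left out in turn. It was 6 with slide as a fixed block, 6 when only the groups compared entered the fit and 3 under the table's assignment of arrays with slide as a fixed block. The number called lower was 0 throughout, and so were the numbers called between vehicle sets and between classes in every alternative run. Of 142 alternative values of the 10 called pairs, leaving out rats aside, 114 were called in the same direction, 25 were not called and 3 were reversed, all of miR-429 in DES: -0.21 in the value table, -0.0287 under its assignment of arrays and -0.0052 with slide as a fixed block (fitted differences of a member not well above background, no folds, and the cause was not tested). Leaving out 1 rat ended 12 of 60 calls: 4 of miR-200a and 3 of miR-200b in CIDB, 4 of miR-429 in DES and 1 of miR-200a in PB. The log2 fold changes then ran, for miR-200b from 0.57 to 0.82 in PBO, between 0.38 and 0.65 in PB, and in CIDB from 0.25 to 0.38. In 9 further pairs a call appeared under at least 1 alternative. These were miR-200c and miR-141 in CIDB, miR-200a and miR-200b in DES, miR-200a and miR-429 in MPy, miR-200b and miR-429 in ETH and miR-200b in CPA. With replicate number as a block for PB and CPA, the count stayed at 10 and miR-200b in PB at 0.48. Same-numbered rats correlated with r from -0.26 to 0.05, and the block changed no call. With 3 rats a group, these correlations cannot show whether the numbers pair rats. Values within scan day could not be had for DES, TAA and Wy, and the group and the day cannot be told apart there. Signal over background limits miR-429, miR-200c and miR-141 most.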
